A study of Mus musculus with 6 samples.

Results

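The keratin family of mouse skin was examined in bulk RNA-seq of dorsal skin. The members were all genes whose symbol in the deposited table is Krt followed by a number and at most 1 letter, which gave 53 of 21959 genes. Of these, 5 were assigned to the interfollicular epidermis (Krt1, Krt2, Krt5, Krt10 and Krt14), 7 to the inner root sheath (Krt25 to Krt28 and Krt71 to Krt73), 12 to the hair shaft (Krt31, Krt32, Krt33a, Krt33b, Krt34, Krt35, Krt36, Krt81 to Krt84 and Krt86), and 29 were listed as other keratins. Krt74 and Krt85 were not analysed here. The mice were male C57BL/6 animals, 7 weeks old, and by the study's methods in telogen, the resting stage of the hair cycle. Their backs were shaved and treated topically every day for 7 days with vehicle (dipropylene glycol in water at 30%) or with 3% rebamipide, a drug used to protect the gastric mucosa, and each group had 3 libraries of full-thickness skin from separate mice. The strain, age and shaving were the same in both groups.

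Keratins are the intermediate filament proteins of epithelial cells. A filament needs a type I chain and a type II chain in equal numbers, and the genes of each type sit together in a cluster on their own chromosome, except that the type I gene Krt18 lies beside the type II gene Krt8. Basal cells of the epidermis make Krt5 and Krt14 and switch to Krt1 and Krt10 as they differentiate. The inner root sheath and the hair shaft are built by dividing cells of the growing follicle, each with its own set of keratins, whereas a resting follicle builds neither.

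The libraries held 38676018 to 39915276 counts in the vehicle group and 32709801 to 34706852 in the rebamipide group, and levels are given as counts scaled to the library total (CPM) after TMM normalization, which corrects each library for its make-up. A count of 0 allows up to 3 counts, or 0.0601 to 0.117 CPM depending on the library, which covers counting error only. Several libraries stood apart from the others of their group in keratins and in other cell type markers. The third rebamipide library, although labelled skin, held 691 keratin counts, or 0.00199% of its counts, and 39 of the 53 keratins were at 0, Krt14 among them. In the same library the 10 keratinocyte markers other than keratins summed to 161 CPM, with 2 of them (Dsp and Dsg3) at 0, against 3762 to 6480 CPM in the vehicle libraries, 1286 CPM in the first and 748 CPM in the second rebamipide library. In the first and the second vehicle libraries the inner root sheath keratins summed to 16396 and 8342 CPM and Krt71 was the keratin with the highest level per transcript length, which goes against the stated telogen stage. The 7 melanocyte markers summed to 1064, 257 and 32.4 CPM in the vehicle libraries and to 128, 6.98 and 0.687 CPM in the rebamipide libraries, with 5 at 0 in the last. The 8 brown adipocyte markers summed to 214 to 384 CPM in the vehicle group and to 5040, 12960 and 10703 CPM in the rebamipide group. Most of the vehicle sum was Elovl3, the 1 marker of the 8 with a fitted fall, at 176, 129 and 238 CPM against 82.3, 83.1 and 33.3 CPM. Ucp1 measured 0 CPM in all vehicle libraries and 2669, 8591 and 5746 CPM in the rebamipide libraries. The 8 adipocyte markers summed to 1465 to 4330 and 9918 to 17063 CPM, and the 8 fast skeletal muscle markers to 5381, 22576 and 26633 CPM against 33896, 7176 and 274 CPM. The 8 fibroblast markers summed to 12392 to 18877 CPM against 15876, 3739 and 1980 CPM, the 6 proliferation markers to 522, 252 and 134 CPM against 89.1, 25.4 and 3.70 CPM, and the 4 endothelial markers to 179 to 402 CPM against 887 to 1284 CPM. The part of these differences in tissue make-up in the keratin results was not tested. In bulk tissue fewer cells of a type and less RNA per cell cannot be told apart.

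The fitted level of nearly every keratin was lower in the rebamipide group, most single keratins did not pass the test, and the sizes depended on single libraries. All keratins together summed to 29417, 22512 and 11193 CPM in the vehicle libraries and to 4142, 1892 and 26.4 CPM in the rebamipide libraries, so that the groups did not overlap. The means were 21041 ± 9201 CPM and 2020 ± 2061 CPM (SD, n = 3 each), a 10.4-fold difference. The libraries also differed by 157-fold within the rebamipide group and by 2.63-fold within the vehicle group. Keratins took 3.76%, 2.78% and 1.35% of all counts in the vehicle libraries against 0.385%, 0.141% and 0.00199% in the rebamipide libraries. The expression filter kept 47 of the 53 members, and Krt9, Krt12, Krt13, Krt42, Krt76 and Krt88, each with at most 23 counts in any library, were not tested.

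Of the 47 keratins tested, 46 had a fitted change below 0, beside 56.9% of all 14875 genes tested, and the same number was below 0 under each other scaling of the libraries. The median log2 fold change of the keratins was -4.49, with a median standard error of 1.94, and that of all genes was -0.17 with a median standard error of 0.36 (-0.78 when libraries were scaled by total counts alone). At an adjusted p under 0.05 edgeR's quasi-likelihood test called 1 keratin lower, beside 6.51% of all genes, and 0 higher, beside 14.1% of all genes. At an unadjusted p under 0.05 the test gave 16 keratins lower and 1 higher, beside 2791 and 3110 of all 14875 genes. All of these keratins also passed the fold threshold of the study, a log2 change over 1 in size. Of all genes 14.5% passed both thresholds on the lower and 14.3% on the higher side. DESeq2, the tool named by the study, called 14 keratins lower at an adjusted p under 0.05, beside 17% of all genes, and 0 higher, beside 18.3%. limma-voom called 0 lower, beside 6.94%. In 13 of the 47 keratins the groups did not overlap, all rebamipide values being lower, a share of 27.7% beside 24% of all genes, and in the other 34 the groups overlapped. As a share of the 47, the keratins called by edgeR came to 2.13%, those called by DESeq2 to 29.8% and those past the study's thresholds on the lower side to 34.0%. The calls also depended on single libraries. With the first, the second or the third vehicle library left out edgeR called 0, 0 and 3 keratins lower, beside 2.52%, 0% and 5.51% of all genes, and with the first, the second or the third rebamipide library left out it called 11, 0 and 3, beside 12.8%, 0% and 2.49%. DESeq2 called 3, 3 and 9 without a vehicle library, beside 13.4%, 9.48% and 20.1% of all genes, and 32, 8 and 16 without a rebamipide library, beside 27.3%, 14.8% and 12.2%. Without a vehicle library only 37, 37 and 38 keratins had a DESeq2 adjusted p, against 48 in each fit without a rebamipide library. The DESeq2 counts are therefore not over the same keratins. Several members passed the expression filter through the vehicle libraries alone, so these counts and medians describe the members and do not support a difference.

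**Figure D1:**
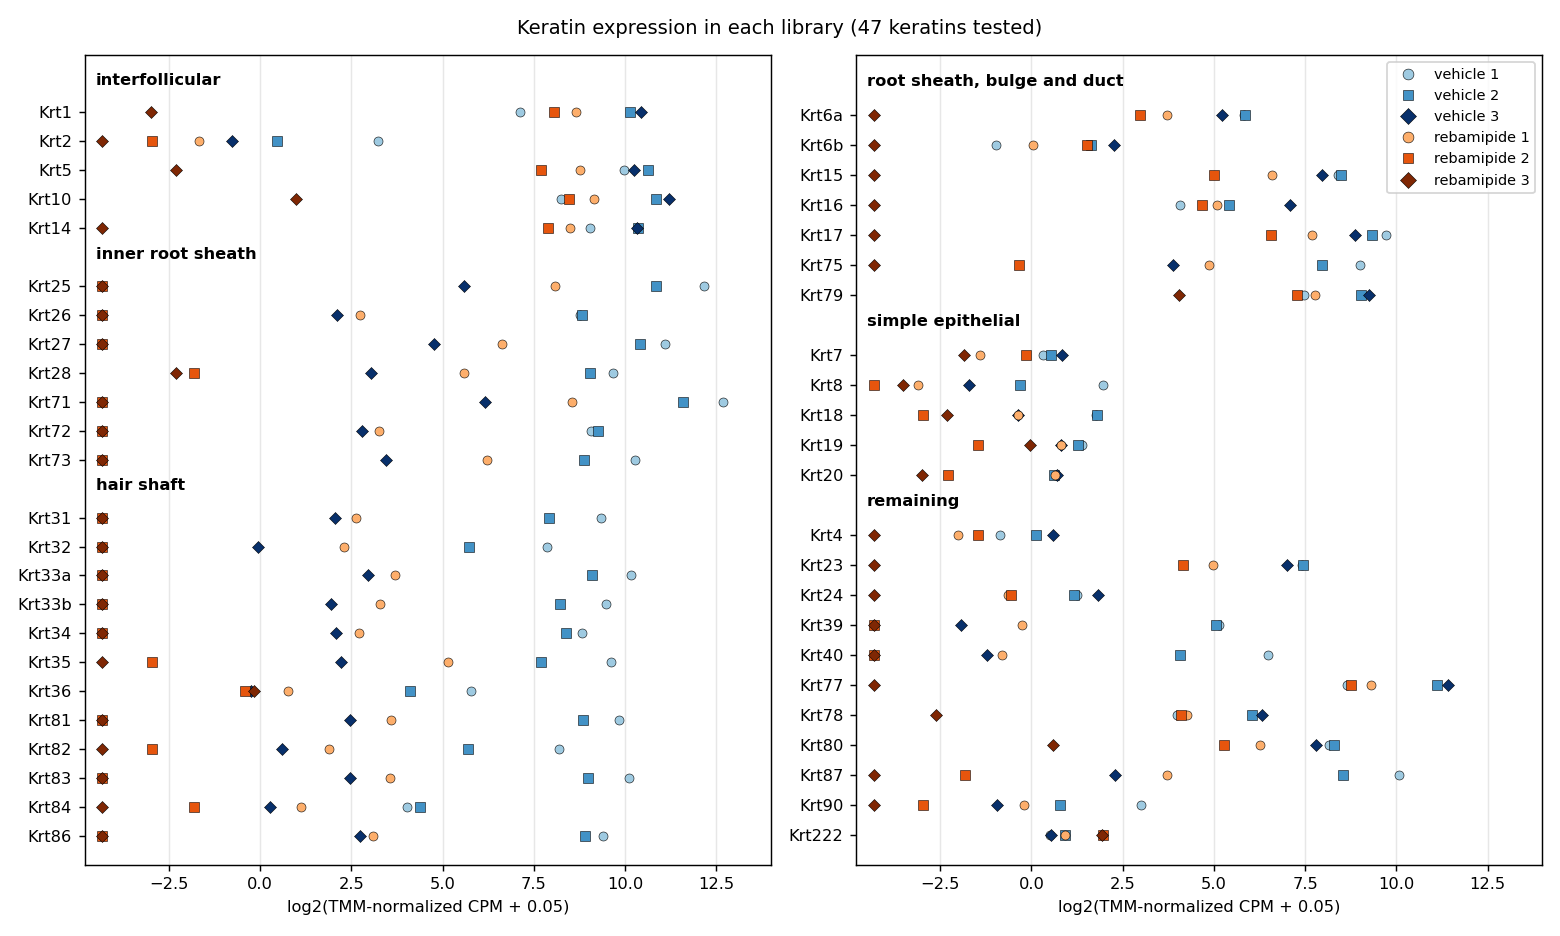
Level of each of the 47 keratins tested in every library, as log2 of TMM-normalized CPM plus 0.05, grouped by site. Points are libraries (blue vehicle, orange to brown rebamipide), and the symbols at the left edge are libraries with 0 counts. The third vehicle library lies far below the other vehicle libraries for the inner root sheath and hair shaft keratins, and below the first rebamipide library in all 19 of them.

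**Figure D2:**
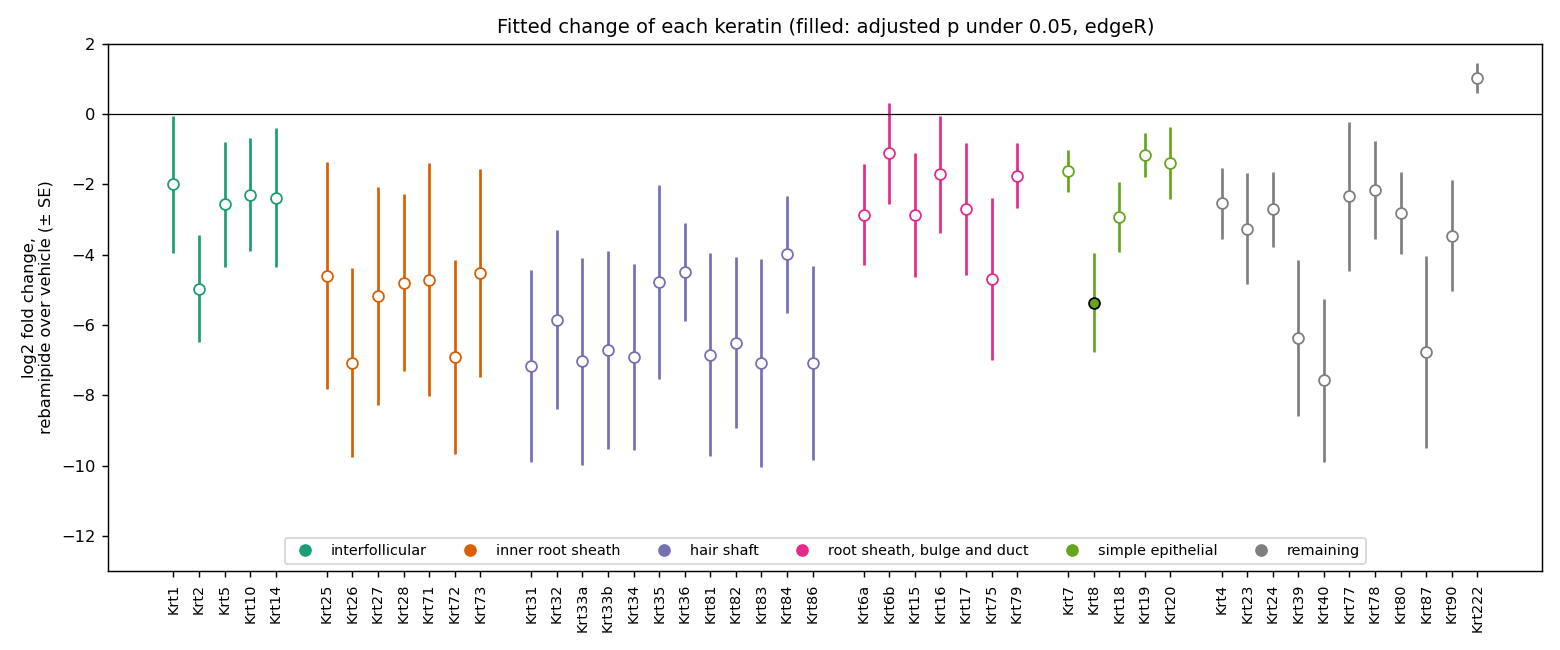
Fitted log2 fold change of each keratin tested, rebamipide over vehicle, from edgeR, with bars of 1 standard error and colours by site. Of the 47 points 46 lie below 0, and Krt8 is the filled point, the 1 keratin with an adjusted p under 0.05.

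The interfollicular keratins summed to 1983, 5854 and 6251 CPM in the vehicle libraries and to 1765, 1064 and 2.18 CPM in the rebamipide libraries. The first vehicle library was the lowest of its group and lay just above the first rebamipide library. Krt14, the basal type I keratin (chr11:100093988-100098374, GRCm39, minus strand), measured 523, 1307 and 1272 CPM in vehicle-treated and 361, 238 and 0 CPM in rebamipide-treated skin. The groups did not overlap, and the fitted log2 fold change was -2.37 ± 1.97 (SE, n = 3 per group, edgeR adjusted p = 0.395). Its partner Krt5, the basal type II keratin, measured 1010, 1574 and 1211 CPM against 435, 209 and 0.153 CPM, again without overlap (log2 fold change -2.56 ± 1.78, edgeR adjusted p = 0.316). In the differentiation keratins Krt1 and Krt10 the groups overlapped. Krt1, the suprabasal type II keratin, measured 139, 1131 and 1396 CPM in the vehicle libraries and 404, 263 and 0.0763 CPM in the rebamipide libraries, so that the first vehicle library fell below 2 of the rebamipide libraries (log2 fold change -2.00 ± 1.94, edgeR adjusted p = 0.465). Krt10, its type I partner, measured 301, 1840 and 2370 CPM against 566, 354 and 1.95 CPM, with the same overlap (log2 fold change -2.29 ± 1.61, edgeR adjusted p = 0.320). Krt2, a keratin of the upper spinous layers, was low in every library, with 9.41, 1.34 and 0.535 CPM against 0.263, 0.0779 and 0 CPM. It had no overlap between groups and a log2 fold change of -4.97 ± 1.53 (edgeR adjusted p = 0.065, DESeq2 adjusted p = 0.00107). edgeR thus called 0 of the 5 interfollicular keratins, beside 6.51% of all genes, and DESeq2 called 1, Krt2, beside 17%. With edgeR 1 had an unadjusted p under 0.05 on the lower side, beside 2791 of all 14875 genes tested. The first vehicle library held most of the Krt2 counts of that group (470, 66 and 25 counts), and without it Krt2 lost its DESeq2 call (adjusted p = 0.113, edgeR log2 fold change -2.96). Without the third rebamipide library DESeq2 also called Krt5 and Krt14, beside 12.2% of all genes called lower in that fit.

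**Figure D3:**
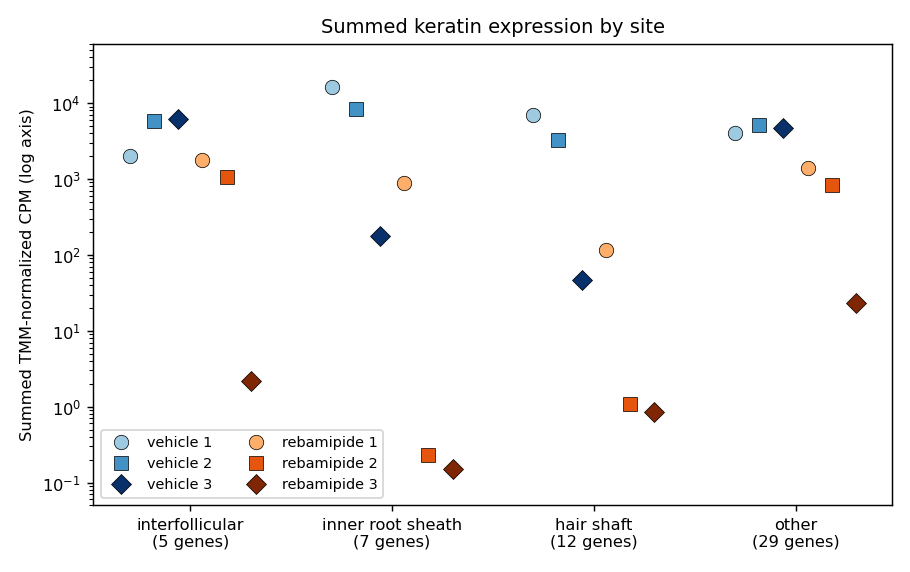
Summed TMM-normalized CPM of the keratins of each site in every library, on a log axis; blue points are vehicle and orange to brown points rebamipide libraries. For the inner root sheath and the hair shaft the third vehicle library, at 177 and 46.3 CPM, lies below the first rebamipide library, at 878 and 115 CPM.

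The inner root sheath keratins held more counts than any other site in the first and second vehicle libraries and were at or near 0 in 2 of the rebamipide libraries. Their sum was 16396, 8342 and 177 CPM in the vehicle libraries and 878, 0.234 and 0.153 CPM in the rebamipide libraries. All 7 members were lowest of the vehicle group in the third library, by a median of 95.8-fold from the highest to the lowest vehicle library, beside 1.65-fold for all genes tested. In all 7 members the first rebamipide library was above the third vehicle library, by 1.40-fold to 6.81-fold with a median of 5.22-fold. Krt71, a type II keratin of all layers of the sheath, measured 6604, 3053 and 71.2 CPM against 372, 0 and 0 CPM (log2 fold change -4.71 ± 3.31, edgeR adjusted p = 0.320). Krt25, a type I keratin of the sheath, measured 4609, 1853 and 48.1 CPM against 268, 0 and 0 CPM (log2 fold change -4.60 ± 3.23, edgeR adjusted p = 0.319). The type I keratin Krt27 measured 2170, 1369 and 27.1 CPM against 99.0, 0 and 0 CPM, and the type II keratin Krt73 measured 1225, 472 and 10.9 CPM against 74.6, 0 and 0 CPM. In each of these 4 genes the vehicle library with the lowest level was exceeded by a rebamipide library, and the standard errors of the fitted changes were among the largest of the family. The other 3 members, Krt26, Krt28 and Krt72, had fitted log2 fold changes of -7.07, -4.79 and -6.91. Krt26 and Krt72 were at 0 in the second and the third rebamipide libraries, and Krt28 held 6 and 4 counts there. Neither edgeR nor DESeq2, which gave Krt26 no adjusted p, called any of the 7, beside 6.51% and 17% of all genes. With edgeR 2 had an unadjusted p under 0.05 on the lower side, beside 2791 of all 14875 genes tested. Without the first rebamipide library edgeR called 6 of them and DESeq2 called all 7, beside 12.8% and 27.3% of all genes called lower in those fits.

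The 250 bases upstream of 2 of these genes are shown because the sheath keratins differed together between libraries and shared a sequence feature. Capitals mark the letters TATAAA, the core of a TATA box, which was searched on both strands in the RefSeq promoter windows (GRCm38.p6), and the windows are chr11:99322952-99323201 for Krt25 and chr15:101743098-101743347 for Krt71, both on the minus strand.
Krt25: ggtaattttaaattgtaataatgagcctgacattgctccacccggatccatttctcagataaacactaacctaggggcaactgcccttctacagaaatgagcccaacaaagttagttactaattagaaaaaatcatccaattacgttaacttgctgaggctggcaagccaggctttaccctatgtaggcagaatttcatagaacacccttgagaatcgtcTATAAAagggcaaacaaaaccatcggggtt
Krt71: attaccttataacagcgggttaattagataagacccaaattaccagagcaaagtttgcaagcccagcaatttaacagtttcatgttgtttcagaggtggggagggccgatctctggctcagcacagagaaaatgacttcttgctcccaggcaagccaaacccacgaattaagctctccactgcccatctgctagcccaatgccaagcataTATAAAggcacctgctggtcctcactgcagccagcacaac
These letters were in the windows of all 7 inner root sheath keratins, of 5 of the 7 hair shaft keratins with a window and of 1 of the 4 interfollicular keratins with a window, beside 12.4% of all 32851 promoter windows. They began 30 bases upstream of the annotated start in Krt25, Krt26, Krt28 and Krt73, 40 bases upstream in Krt71 and 15 bases upstream in Krt27, while in Krt72 they lay on the opposite strand. In Krt84, 1 of the 5 hair shaft keratins, they also lay on the opposite strand, 206 bases upstream. In all, 36 of the 53 keratins had a RefSeq window, 37 windows in total, and 45.9% of those windows held the letters. A match is a description of the sequence and not evidence of a bound factor.

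The hair shaft keratins had a median fitted log2 fold change of -6.78, beyond that of the inner root sheath keratins with all libraries, and a wide spread between the vehicle libraries. Without the first rebamipide library the medians were -16.42 for the hair shaft and -17.46 for the inner root sheath keratins. In the second rebamipide library 8 of the 12 shaft and 6 of the 7 sheath keratins were at 0, and in the third 11 and 6. These 2 medians therefore rest on counts of 0 and give no measured size or order. The hair shaft keratins summed to 7004, 3216 and 46.3 CPM in the vehicle libraries and to 115, 1.09 and 0.840 CPM in the rebamipide libraries. All 12 members were lowest of the vehicle group in the third library, the median ratio of the highest to the lowest vehicle library was 161, and the first rebamipide library was above the third vehicle library in all 12, by 1.27-fold to 7.70-fold. Krt33a, a type I keratin of the hair cortex, measured 1154, 549 and 7.70 CPM in vehicle-treated and 13.0, 0 and 0 CPM in rebamipide-treated skin (log2 fold change -7.03 ± 2.94, edgeR adjusted p = 0.130). Krt83, a type II hair keratin of the cortex, measured 1099, 505 and 5.45 CPM against 11.9, 0 and 0 CPM (log2 fold change -7.08 ± 2.95, edgeR adjusted p = 0.129). The type II hair keratins Krt81 and Krt86 followed the same order of libraries. Krt81 measured 904, 462 and 5.52 CPM against 11.9, 0 and 0 CPM, and Krt86 measured 670, 478 and 6.63 CPM against 8.43, 0 and 0 CPM. The fitted log2 fold changes of the 12 genes ran from -7.16 to -3.98. edgeR called 0 of the 12, beside 6.51% of all genes, and DESeq2 called 3 (Krt36, Krt82 and Krt84), beside 17%. With edgeR 5 had an unadjusted p under 0.05 on the lower side, beside 2791 of all 14875 genes tested. DESeq2 called Krt36 alone without the first vehicle, the second vehicle or the second rebamipide library, and Krt36 and Krt82 without the third vehicle library. In each fit without a vehicle library only 8 of the 12 had a DESeq2 adjusted p, so the others were not tested there. Krt36, named here after its values were seen, was the only hair shaft keratin above 0 in every library, at 54.3, 17.2 and 0.791 CPM against 1.65, 0.701 and 0.840 CPM (DESeq2 adjusted p = 0.000361, edgeR adjusted p = 0.065) and counts of 37 in the third vehicle and 22 in the third rebamipide library. Without the first rebamipide library DESeq2 called all 12 hair shaft keratins lower and edgeR called 1, Krt35, beside 27.3% and 12.8% of all genes.

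For 4 neighbouring type I hair keratins the 250 upstream bases are given, since these genes shared the order of the libraries and 2 short elements. Capitals mark TATAAA and CTTTGA, the second being the core letters bound by LEF1, a transcription factor of hair-forming cells. The windows (RefSeq, GRCm38.p6, minus strand) are chr11:100050552-100050801 for Krt31, chr11:100088270-100088519 for Krt32, chr11:100029869-100030118 for Krt33b and chr11:100041555-100041804 for Krt34.
Krt31: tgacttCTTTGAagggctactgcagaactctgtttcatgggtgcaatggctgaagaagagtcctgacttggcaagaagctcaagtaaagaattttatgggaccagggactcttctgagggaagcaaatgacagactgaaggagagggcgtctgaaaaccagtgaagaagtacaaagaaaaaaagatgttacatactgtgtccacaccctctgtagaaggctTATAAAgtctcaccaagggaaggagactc
Krt32: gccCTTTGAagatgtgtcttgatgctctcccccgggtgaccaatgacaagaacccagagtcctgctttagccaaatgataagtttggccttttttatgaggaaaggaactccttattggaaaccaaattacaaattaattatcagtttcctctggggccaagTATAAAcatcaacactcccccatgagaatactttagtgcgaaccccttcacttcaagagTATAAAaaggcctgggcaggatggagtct
Krt33b: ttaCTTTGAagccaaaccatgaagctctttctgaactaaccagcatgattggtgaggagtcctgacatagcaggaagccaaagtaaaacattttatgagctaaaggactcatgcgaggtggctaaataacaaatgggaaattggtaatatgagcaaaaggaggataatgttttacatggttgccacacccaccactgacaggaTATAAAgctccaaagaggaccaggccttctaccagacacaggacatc
Krt34: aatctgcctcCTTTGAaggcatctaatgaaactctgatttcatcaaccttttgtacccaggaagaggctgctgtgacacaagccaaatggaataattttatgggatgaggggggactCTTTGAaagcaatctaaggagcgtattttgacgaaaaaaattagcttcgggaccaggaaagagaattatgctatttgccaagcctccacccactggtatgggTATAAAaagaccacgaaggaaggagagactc
All of these matches were on the strand of the gene. CTTTGA began 244 bases upstream of the start in Krt31, 247 bases upstream in Krt32 and in Krt33b, and 240 and 133 bases upstream in Krt34. Of the 7 hair shaft keratins with a window these 4 held CTTTGA on either strand, beside 13.8% of all promoter windows and 24.3% of the keratin windows. The 4 sequences were aligned with each other and were identical at 54.4% to 64.8% of the 250 positions. No value for unrelated windows is given, so these shares do not show by themselves that the sequences are related. A further motif, GCCNNNGGC, the consensus of the AP-2 factors, was in 13.5% of the keratin windows beside 13.7% of all windows, and in none of the interfollicular, inner root sheath or hair shaft windows. Lef1 itself measured 113, 26.0 and 2.35 CPM in the vehicle libraries and 8.83, 0.351 and 0.229 CPM in the rebamipide libraries, and Hoxc13, a regulator of hair keratin genes, measured 175, 60.1 and 3.61 CPM against 11.4, 0.234 and 0 CPM. Both had the order of libraries seen in the hair shaft keratins, overlapped between groups and did not pass (edgeR adjusted p = 0.168 and 0.184). These 2 genes were chosen with their values in view.

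The keratins of the outer root sheath, the bulge and the gland ducts, a list of 7, had fitted changes below 0 that did not pass the test. They summed to 1926, 1882 and 1516 CPM in the vehicle group and to 599, 318 and 16.4 CPM in the rebamipide group. Krt17, a keratin of the outer root sheath, measured 833, 645 and 464 CPM against 205, 94.3 and 0 CPM (log2 fold change -2.70 ± 1.89, edgeR adjusted p = 0.318). Krt15, a marker of the bulge where the follicle stem cells reside, measured 335, 360 and 247 CPM against 97.0, 32.1 and 0 CPM (log2 fold change -2.87 ± 1.77, edgeR adjusted p = 0.265). Krt6a, a keratin of the companion layer that is induced in wounds, measured 56.6, 58.3 and 37.4 CPM against 13.0, 7.83 and 0 CPM. These 3 genes were the members without overlap between the groups, a share of 42.9% of the 7 beside 24% of all genes. Krt75, the companion layer keratin next to the inner root sheath, measured 509, 249 and 14.6 CPM against 29.1, 0.740 and 0 CPM, the pattern of the inner root sheath genes with the third vehicle library below the first rebamipide library. Krt16, induced in stressed epidermis, measured 16.9, 42.3 and 136 CPM against 33.8, 25.6 and 0 CPM. Krt6b measured 0.461, 3.05 and 4.79 CPM against 0.988, 2.84 and 0 CPM. In both of these the first vehicle library was below 2 of the rebamipide libraries. Krt79, a keratin of the follicle funnel and the sebaceous duct, measured 176, 524 and 612 CPM against 220, 155 and 16.4 CPM (log2 fold change -1.74 ± 0.93, edgeR adjusted p = 0.208). Krt79 made up 431 of the 691 keratin counts of the third rebamipide library, a share of 62.4% (95% Wilson interval 58.7% to 65.9%, counting error only), while Krt5 and Krt14 held 4 and 0 counts there. With all libraries neither tool called any of the 7, beside 6.51% (edgeR) and 17% (DESeq2) of all genes, and 0 had an unadjusted p under 0.05 with edgeR. Without the third rebamipide library DESeq2 called Krt6a, Krt15 and Krt17 lower, beside 12.2% of all genes, and edgeR called Krt6a, beside 2.49%. Without the first rebamipide library edgeR called Krt75, beside 12.8%, and DESeq2 called Krt75 and Krt79, beside 27.3%.

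Keratins of simple epithelia, which in skin mark glands and the Merkel touch cells, were low in every library, with sums of 12.5, 9.42 and 6.03 CPM against 4.35, 1.40 and 1.41 CPM. Krt8, the type II keratin of simple epithelia, was the only keratin that edgeR called (log2 fold change -5.36 ± 1.41, adjusted p = 0.044, DESeq2 adjusted p = 0.000988). It held 191, 37 and 12 counts in the vehicle libraries (3.83, 0.751 and 0.257 CPM) and 2, 0 and 1 counts in the rebamipide libraries, a ratio of 45.0 with an exact interval of 15.2 to 220 over the pooled counts that covers counting error only and not the spread between mice. Of the 240 vehicle counts 191 came from the first library, without which the ratio of the mean CPM was 14.5, and all rebamipide counts were at or under 3. The call was lost without 5 of the 6 libraries (all but the third vehicle library), with edgeR adjusted p-values of 0.0704 to 0.147 in those fits, whereas DESeq2 called Krt8 in all 6 fits without a library. With all libraries Krt8 was also not called by limma-voom (adjusted p = 0.088), by edgeR with the replicate number as a block (adjusted p = 0.056) or by limma on log2(FPKM + 1) (adjusted p = 0.124). Krt18, the type I partner of Krt8, measured 3.35, 3.41 and 0.727 CPM against 0.724, 0.0779 and 0.153 CPM (edgeR adjusted p = 0.081, DESeq2 adjusted p = 0.0115). Its groups did not overlap, although its lowest vehicle and its highest rebamipide library were nearly equal, and DESeq2 no longer called it once the first or second vehicle library was left out. Krt7, a keratin of glandular epithelium, measured 1.20, 1.40 and 1.75 CPM against 0.329, 0.857 and 0.229 CPM without overlap (edgeR adjusted p = 0.097, DESeq2 adjusted p = 0.0454). Of the 6 DESeq2 fits without a library, only that without the second rebamipide library called Krt7. Krt19 measured 2.54, 2.38 and 1.71 CPM against 1.71, 0.312 and 0.916 CPM, and Krt20, a Merkel cell keratin, measured 1.54, 1.48 and 1.58 CPM against 1.51, 0.156 and 0.0763 CPM. In Krt19 and Krt20 the first rebamipide library lay within the vehicle range or at its edge. Without that library edgeR called Krt18 and Krt20 lower, beside 12.8% of all genes. DESeq2 then called Krt8, Krt18, Krt19 and Krt20 lower, beside 27.3%.

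Among the 17 remaining keratins 11 were tested. Krt77, a type II keratin of the epidermis, was the most abundant of them at 401, 2229 and 2752 CPM against 635, 428 and 0 CPM (log2 fold change -2.34 ± 2.12, edgeR adjusted p = 0.434), with the first vehicle library below 2 rebamipide libraries as for Krt1 and Krt10. Krt87 measured 1085, 371 and 4.88 CPM against 13.2, 0.234 and 0 CPM, and thus followed the hair shaft keratins near which it lies. Krt80, made in differentiating epithelia, measured 286, 310 and 224 CPM against 76.8, 38.8 and 1.45 CPM (log2 fold change -2.81 ± 1.16, edgeR adjusted p = 0.127, DESeq2 adjusted p = 0.0168). Krt23 measured 169, 175 and 128 CPM against 31.3, 17.8 and 0 CPM (log2 fold change -3.26 ± 1.58, edgeR adjusted p = 0.174). Both genes had vehicle libraries close to each other and no overlap between the groups. Without the third rebamipide library edgeR called Krt23 and Krt80 lower (adjusted p = 0.0225 and 0.0325), beside 2.49% of all genes. Krt40, with the largest fitted difference of the family when all libraries were kept (log2 fold change -7.57 ± 2.33), and Krt39, both chosen after their values were seen, had overlapping groups, at 89.8, 16.9 and 0.385 CPM against 0.527, 0 and 0 CPM and at 35.2, 33.0 and 0.214 CPM against 0.790, 0 and 0 CPM. That rank was lost without the first rebamipide library, where Krt71 was fitted at -19.97 on 0 counts in both other rebamipide libraries. DESeq2 called 7 of these 11 lower (Krt4, Krt24, Krt39, Krt40, Krt80, Krt87 and Krt90), a share of 63.6% beside 17% of all genes, and edgeR called 0, beside 6.51%, with 5 lower at an unadjusted p under 0.05. The DESeq2 count was 1, 0 and 4 without a vehicle library, beside 13.4%, 9.48% and 20.1% of all genes. It was 6, 3 and 5 without a rebamipide library, beside 27.3%, 14.8% and 12.2%. The edgeR count was 0, 0 and 1 without a vehicle library, beside 2.52%, 0% and 5.51%. It was 1, 0 and 2 without a rebamipide library, beside 12.8%, 0% and 2.49%. The 1 keratin with a fitted rise was Krt222, a keratin-like gene at the edge of the chromosome 11 cluster, which was also chosen after its values were seen. It measured 1.36, 1.85 and 1.41 CPM in the vehicle and 1.84, 3.86 and 3.78 CPM in the rebamipide libraries (log2 fold change 1.03 ± 0.42, edgeR adjusted p = 0.123). The first rebamipide library lay within the vehicle range, and without that library edgeR called Krt222 higher (adjusted p = 0.038).

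The make-up of the keratin RNA differed between libraries of the same group. Interfollicular keratins were 6.74%, 26.0% and 55.8% of all keratin counts in the vehicle libraries and 42.6%, 56.2% and 8.25% in the rebamipide libraries, the last resting on 57 counts (95% Wilson interval 6.42% to 10.5%). Inner root sheath keratins were 55.7%, 37.1% and 1.58% against 21.2%, 0.0124% and 0.579%. Hair shaft keratins were 23.8%, 14.3% and 0.414% against 2.79%, 0.0577% and 3.18%. The third vehicle library and the second rebamipide library thus had interfollicular shares within 1 percentage point of each other. On the scale per transcript length (FPKM), Krt71 was the most abundant keratin of the first and second vehicle libraries at 3858 and 1723 FPKM. In the third vehicle library it ranked 12 with 39.4 FPKM, and Krt10 came first with 1356 FPKM. Krt10 was also first in the first and second rebamipide libraries, with 248 and 125 FPKM, and Krt79 was first in the third. Hair shaft over interfollicular FPKM was 3.95, 0.660 and 0.00896 in the vehicle libraries and 0.0759, 0.00126 and 0.499 in the rebamipide libraries, and the groups overlapped in this ratio. The third library of that group rests on 22 hair shaft counts, all of Krt36.

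**Figure D4:**
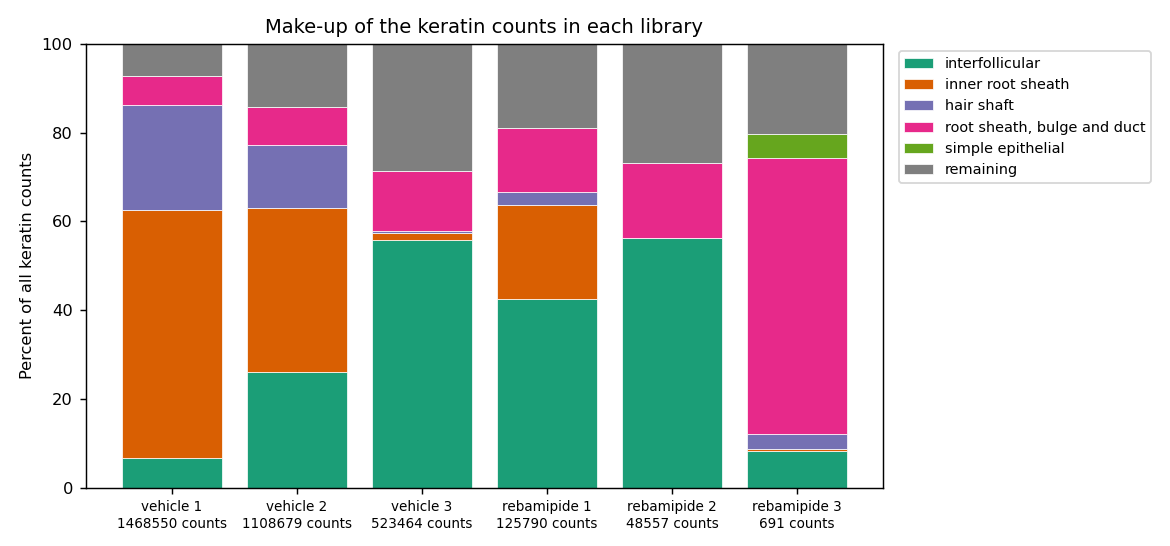
Share of all keratin counts held by each site in every library, in percent, with the number of keratin counts under each bar. The inner root sheath and hair shaft shares fall from 55.7% and 23.8% in the first vehicle library to 1.58% and 0.414% in the third, and the third rebamipide library rests on 691 counts.

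The ratio of type I to type II RNA was compared within libraries, since filaments pair the chains. Over all keratins, summed type I over summed type II FPKM was 1.17, 1.15 and 1.22 in the vehicle libraries and 1.19, 1.17 and 0.559 in the rebamipide libraries, so that the first and second rebamipide libraries lay within the vehicle range and the third, with its 691 counts, did not. The mean log2 ratio, rebamipide minus vehicle, was -0.36, and it was 0.002 without the third rebamipide library. Within the inner root sheath the ratio of type I to type II was 1.13, 1.18 and 1.16 in the vehicle libraries and 1.10 in the first rebamipide library, across a 92.8-fold range of the summed level among the vehicle libraries. Krt25 over Krt71 was 0.767, 0.667 and 0.742 against 0.794 in the same library, and Krt27 over Krt71 was 0.463, 0.633 and 0.536 against 0.376, below the vehicle range. The hair shaft keratins had ratios of type I to type II of 1.45, 1.22 and 1.41 in the vehicle libraries and of 2.06 and 3.60 in the first and the second rebamipide library, both above the vehicle range, the second on few counts. Krt31 over Krt81 was 0.953, 0.695 and 0.987 against 0.694 in the first rebamipide library. Over the interfollicular keratins the ratio was 0.889, 1.66 and 2.13 in the vehicle libraries and 1.63 and 1.95 in the first and the second rebamipide library. Krt14 over Krt5 was 0.647, 1.04 and 1.31 in the vehicle libraries and 1.04 and 1.42 in the first and second rebamipide libraries, and Krt10 over Krt1 was 4.52, 3.40 and 3.55 against 2.93 and 2.81. Krt1 over Krt5, the suprabasal over the basal type II keratin, was 0.0686, 0.357 and 0.574 against 0.463 and 0.626, lowest in the first vehicle library. Krt17 over Krt14 was 1.80, 0.559 and 0.414 against 0.643 and 0.450, highest in that library. Ratios of the third rebamipide library for these pairs rest on 0 to 51 counts of each gene and were not compared. No test was made of these ratios.

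The order of the libraries changed along the gene clusters. In the deposited coordinates (GRCm39 in the processing notes) 27 keratins lie on chromosome 11 between 99123587 and 100160697, over 1037 kb, and 26 lie on chromosome 15 between 101245325 and 101940462, over 695 kb. On chromosome 11 the sheath genes Krt25, Krt26, Krt27 and Krt28 are adjacent, and the next gene in the table is Krt10. Among the vehicle libraries the sheath genes were lowest in the third, and Krt10 was highest there. The hair shaft genes Krt33a, Krt33b, Krt34, Krt31, Krt32, Krt35 and Krt36 are likewise adjacent, and all 7 were lowest of the vehicle group in the third library. On chromosome 15 the sheath genes Krt71, Krt72 and Krt73 lie between Krt5 and Krt2, with Krt1 and Krt77 following. The order of the vehicle libraries turned over within this stretch, from Krt73 at 1225, 472 and 10.9 CPM to Krt1 at 139, 1131 and 1396 CPM. Krt8 and Krt18, adjacent at the end of the cluster, were both low.

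**Figure D5:**
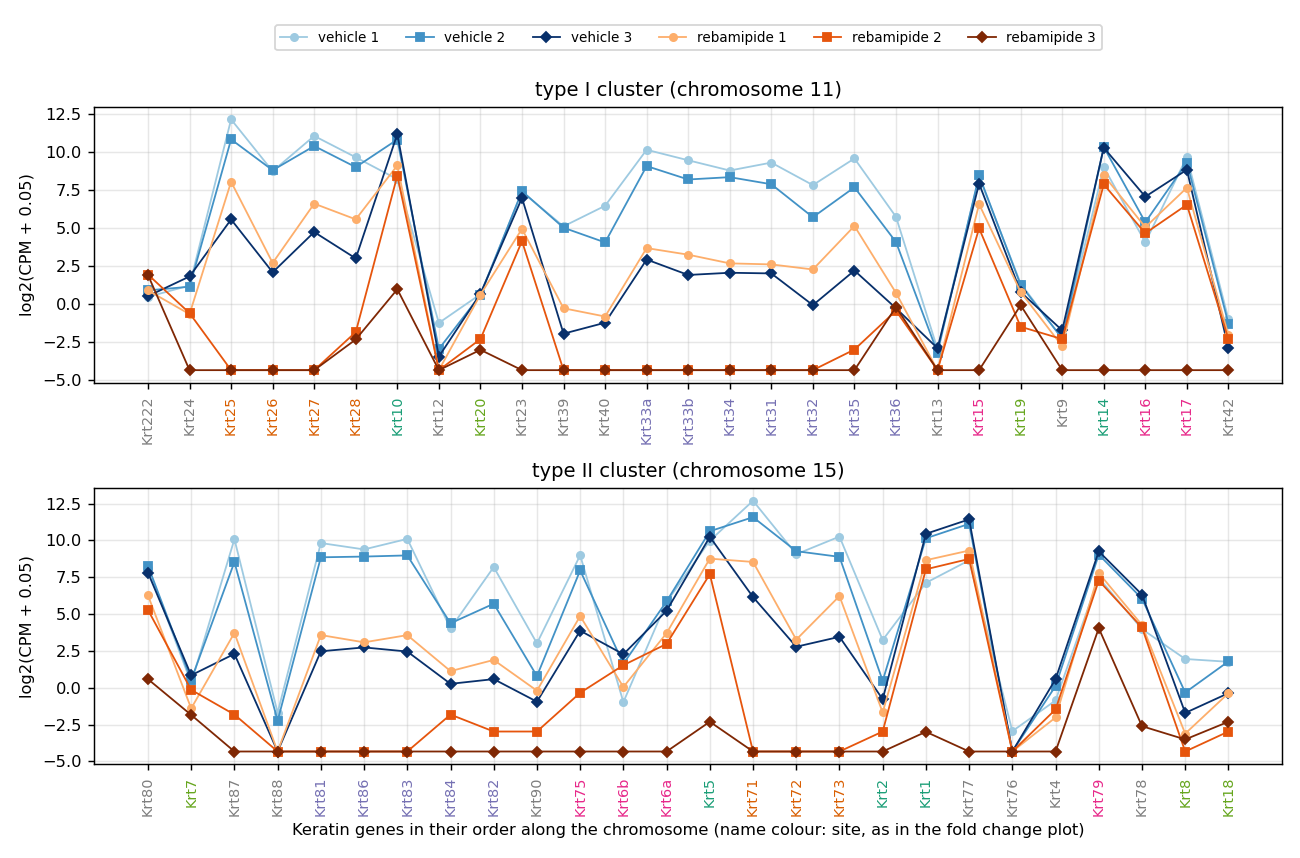
Level of each keratin as log2 of CPM plus 0.05 in every library, with genes in their order along chromosome 11 (type I cluster) and chromosome 15 (type II cluster and Krt18), name colours giving the site. Lines join values of a library; the third vehicle library drops below the first rebamipide library over the runs Krt25 to Krt28, Krt33a to Krt36 and Krt71 to Krt73 and is at or near the top at Krt10, Krt14, Krt1 and Krt77.

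A list of 22 genes held linkers and cross-linkers of keratin filaments together with other proteins of keratinocyte differentiation, not all of which bind keratin. All were tested, and 22 had a fitted change below 0, beside 56.9% of all genes. edgeR called 2 lower, beside 6.51% of all genes, and DESeq2 called 11 lower, beside 17%. In 12 the groups did not overlap, all being lower, beside 24%. The median log2 fold change was -2.96, beside -0.17 for all genes. Jup (plakoglobin), a desmosome and adherens junction protein, measured 516, 388 and 295 CPM against 202, 152 and 119 CPM (log2 fold change -1.34 ± 0.32, edgeR adjusted p = 0.034). Ppl (periplakin), which ties keratin to the cornified envelope, measured 335, 369 and 233 CPM against 62.9, 42.4 and 5.92 CPM (log2 fold change -3.07 ± 0.82, edgeR adjusted p = 0.045). In both genes the groups did not overlap. edgeR called 0% of all genes lower without the second vehicle or the second rebamipide library, so both calls were lost in those fits. Dst (dystonin), a linker of filaments to hemidesmosomes, had the next smallest p, at 131, 278 and 207 CPM against 111, 107 and 79.8 CPM (edgeR adjusted p = 0.064). Tchh (trichohyalin), the cross-linked matrix protein of the inner root sheath, measured 8351, 6070 and 104 CPM against 249, 0.507 and 0.229 CPM and had the order of libraries of Krt71. Dsp (desmoplakin), the desmosome protein that anchors keratin, measured 2446, 1880 and 998 CPM against 304, 140 and 0 CPM. Krtdap, a keratinocyte differentiation protein, measured 148, 747 and 1083 CPM against 244, 211 and 0.229 CPM, with the first vehicle library lowest of its group as for Krt1. Of 15 transcription factors known to act on keratin genes or their cells 14 were tested, and edgeR called 2 lower and 1 higher, beside 6.51% and 14.1% of all genes. DESeq2 called 8 lower and 1 higher, beside 17% and 18.3% of all genes, and 8 had lower levels without overlap, beside 24%. Prdm1, a regulator of terminal differentiation, measured 72.4, 67.8 and 36.8 CPM against 11, 7.17 and 1.87 CPM (log2 fold change -3.14 ± 0.67, edgeR adjusted p = 0.027). Klf4, a barrier factor of suprabasal cells, measured 167, 167 and 233 CPM against 74.4, 103 and 49.0 CPM (log2 fold change -1.32 ± 0.32, edgeR adjusted p = 0.038). The calls of Prdm1 and Klf4 were likewise lost without the second vehicle or the second rebamipide library. Trp63, the master factor of basal keratinocytes, measured 305, 228 and 196 CPM against 55.5, 30.2 and 1.18 CPM (edgeR adjusted p = 0.102). Cebpa, which acts in keratinocytes and in fat cells, rose from 124, 173 and 243 CPM to 569, 752 and 875 CPM (log2 fold change 2.02 ± 0.34, edgeR adjusted p = 0.015), beside the higher summed adipocyte markers given above.

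A list of 15 other intermediate filament genes, those of non-epithelial cells and the nuclear lamins, had 8 tested. edgeR called 0 of them lower and 1 higher, beside 6.51% and 14.1% of all genes, and DESeq2 called 2 lower and 1 higher, beside 17% and 18.3%. With edgeR 2 had an unadjusted p under 0.05 on the lower side, beside 2791 of all 14875 genes tested. Vim (vimentin), the filament of fibroblasts and other mesenchymal cells, measured 498, 646 and 1077 CPM in the vehicle and 983, 694 and 703 CPM in the rebamipide libraries (log2 fold change 0.10 ± 0.36, edgeR adjusted p = 0.854). Des (desmin), the filament of muscle, measured 162, 827 and 782 CPM against 1115, 358 and 101 CPM, with overlapping groups. Nes (nestin) measured 20.1, 34.4 and 30.9 CPM against 48.1, 56.4 and 55.9 CPM without overlap (log2 fold change 0.91 ± 0.25, edgeR adjusted p = 0.048). Lmna, a lamin of the nuclear envelope, measured 340, 256 and 373 CPM against 216, 119 and 76.4 CPM, also without overlap (log2 fold change -1.23 ± 0.41, edgeR adjusted p = 0.079). Lmnb1, a lamin abundant in dividing cells, measured 182, 67.1 and 30.4 CPM against 38.6, 8.34 and 6.53 CPM (log2 fold change -2.39 ± 0.94, edgeR adjusted p = 0.115). These lamins were the 2 genes with an unadjusted p under 0.05 on the lower side. The median log2 fold change of the 8 was -0.63, against -4.49 for the keratins, and this difference between the lists was not tested.

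Reads of near-identical keratins may have been assigned to a paralog or left out, since the counting settings were not given in the sources used here. Of all 50-base stretches of its transcripts, Krt6a and Krt6b each shared 44.8% with other keratins, Krt86 43.3%, Krt81 37.7%, Krt34 33.1%, Krt31 28.1%, Krt33b 24.2%, Krt83 22.1% and Krt33a 17.8%, by the GENCODE annotation of GRCm38. Values of these single genes are therefore uncertain. The closest match of each of these was a keratin of the same site. Krt87 (17.0%, closest to Krt81), Krt14 (13.9%, closest to Krt16) and Krt16 (12.4%, closest to Krt14) matched best across the sites used here. So did Krt5 (7.36%, closest to Krt6a), Krt17 (3.99%, closest to Krt14) and Krt15 (0.64%, closest to Krt25). The sums by site can therefore also be affected. No keratin overlapped another gene of the table.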

How the data were processed

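Bulk RNA-seq of dorsal skin from 3 vehicle-treated and 3 rebamipide-treated mice was analysed. For 21959 genes the authors deposited 1 table of raw counts and FPKM, and per the labels their processing notes name fastp 0.22.0, HISAT2 2.1.0, HTSeq 0.9.1 and GRCm39. Strand and multi-mapping settings were not given in the sources used here. The deposited FPKM equalled the counts divided by gene length and library total. All columns were matched to samples by name. Replicate libraries of a group differed by far more than sampling noise.

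Groups were taken from the titles. The main comparison used edgeR 4.0.16 under R 4.3.3 (filterByExpr, TMM, quasi-likelihood test, no covariates, Benjamini-Hochberg over 14875 genes, calls at an adjusted p under 0.05). The thresholds of the study were a log2 fold change over 1 in size and an unadjusted p under 0.05. DESeq2 1.42.0, limma-voom (limma 3.58.1), RLE, upper quartile and total count scaling, no filter, a minimum of 10 counts in every library, a replicate block, limma on log2(FPKM + 1) and each library left out in turn were alternatives. DESeq2 with each library left out was added after the data were seen. On simulated counts of 14793 genes with 200 genes changed 4-fold, edgeR recovered 96.5% with 12 false calls. DESeq2 recovered 97.5% with 30 and limma-voom 96% with 14. Every simulated gene was given the same spread between libraries. The keratins varied far more, by a median of 17.6-fold from the highest to the lowest vehicle library. The simulated shares therefore do not describe how well the tests find changes in keratins.

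The members, sites, marker lists and other lists were chosen with earlier results of these data known. Values in every library were given for all interfollicular, root sheath, bulge, duct and simple epithelial keratins tested, for the 4 with the highest mean CPM of the inner root sheath, the hair shaft and the remaining keratins, and for the 3 most abundant genes and up to 3 with the smallest p of each other list. Promoter windows are from RefSeq (GRCm38.p6) and shared 50-base stretches from GENCODE transcripts of GRCm38. Nothing says that same-numbered mice share a litter or day, so numbers only name libraries, and p-values measure the spread between these mice.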

Additional observations from a re-analysis of the deposited data

How the results depend on the processing

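The direction was stable and the number of keratins called was not. For 29 named keratins 559 values were recomputed under the alternatives, and 489 kept their side of the threshold, 62 gained a call, 8 lost it and 0 changed sign. Against 1 keratin called lower with all libraries, DESeq2 called 14, limma-voom 0, scaling by total counts alone 5 and limma on log2(FPKM + 1) 12. Total counts alone called 25.2% and FPKM 32.3% of all genes lower. With each library left out in turn the count ran from 0 to 11 with edgeR and from 3 to 32 with DESeq2, highest in both without the first rebamipide library. Without a vehicle library only 37, 37 and 38 keratins had a DESeq2 adjusted p. Among them were 2 of the inner root sheath and 8 of the hair shaft keratins in each fit. The interfollicular keratins went from 0 to 1 with DESeq2 or total counts alone and to 0 to 3 in the fits without a library. The inner root sheath keratins went from 0 to 1 with FPKM and to 0 to 7 without a library. The hair shaft keratins went from 0 to 3 with DESeq2, to 1 with total counts alone, FPKM or the filter of 10 counts, which leaves 5 keratins, and to 0 to 12 without a library. The other keratins went from 1 to 10 with DESeq2 or FPKM, 3 with total counts alone, 0 with limma-voom or the filter of 10 counts, and 0 to 12 without a library. The 16 keratins past the thresholds of the study on the lower side became 26 with DESeq2, 10 with limma-voom, 2 with the filter of 10 counts, 29 with FPKM and 2 to 33 without a library, beside 14.5% of all genes with edgeR and all libraries and 18.2%, 15.2%, 14.9%, 20.5% and 9.3% to 24.6% in these. The 1 on the higher side, Krt222, became 0 with limma-voom, RLE, upper quartile, total counts, no filter, the filter of 10 counts and FPKM, and 0 to 1 without a library. Without the first rebamipide library 1 keratin, Krt222, was called higher by edgeR and by DESeq2 against 0 with all libraries, and over the fits without a library the range was 0 to 1. The log2 ratio of the mean summed CPM, rebamipide over vehicle, was -2.31 for the interfollicular, -4.83 for the inner root sheath and -6.45 for the hair shaft keratins. Without a library it ran from -3.14 (without the first rebamipide library) to -1.73 (without the third) for the interfollicular keratins, from -15.39 to -3.86 for the sheath and from -11.79 to -5.38 for the shaft, with the low end of both also without the first rebamipide library. Those low ends rest on rebamipide counts of 6 and 4 for the sheath and 28 and 22 for the shaft, so their sizes are uncertain. The mean log2 ratio of type I to type II FPKM, -0.36, ran from -0.54 to 0.002, the last without the third rebamipide library. The causes were not tested.

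Same-numbered libraries of the groups did not deviate together, with correlations of their deviations from the group means of -0.02, -0.04 and -0.002. With the replicate number as a replicate block edgeR called 7 keratins lower, 1 interfollicular, 3 hair shaft and 3 other, beside 5.75% of all genes called lower, and 27 were past the thresholds of the study on the lower side, beside 14% of all genes, and 0 on the higher side. A level at or under 3 counts cannot be told from 0.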
